A study of Mus musculus with 17 samples.

Results

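The genes described here are the replication-dependent core histone genes and the linker histone genes of the mouse. They were taken by symbol, as every entry whose name began with Hist1h to Hist4h or matched the newer H2ac, H2bc, H3c, H4c and H1f names, with 1 symbol ending in -ps left out. This gave 70 of the 55453 distinct symbols in the table: 56 Hist1 genes on chromosome 13, 10 Hist2 genes on chromosome 3, 2 Hist3 genes on chromosome 11, 1 Hist4 gene on chromosome 6, and H1f0 on chromosome 15. Of the 70 genes, 17 had a mean of at least 1 TPM over all mice and could be tested, and 53 lay under it. TPM is the number of transcripts of a gene per 1000000 transcripts, corrected for transcript length.

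RNA was measured in bulk cortex from 17 male C57BL/6J mice in 6 groups. Hemizygous Hnrnph2 knockout mice (KO, 3 mice), whose allele carries an indel that brings in a premature stop codon, and hemizygous Hnrnph2 R206W knockin mice (R206W, 3 mice) were 8 weeks old. Hemizygous Hnrnph2 P209L knockin mice (P209L, 3 mice) were 3 weeks old, and each line had wild-type littermates of the same age (KO Control, 3 mice; R206W Control, 3 mice; P209L Control, 2 mice). Hnrnph2 is an X-linked gene, and its product hnRNPH2 binds RNA in the nucleus. Age and line are the same split for the P209L groups, so they cannot be told apart. In bulk tissue, fewer cells of a type and less RNA per cell cannot be told apart either.

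Core histones H2A, H2B, H3 and H4 form the spool of the nucleosome, and H1 binds the DNA where it enters and leaves. Most of these genes are intronless, sit in clusters and are transcribed when a dividing cell copies its DNA, and their mRNA ends in a conserved stem-loop, bound by the protein Slbp, in place of a poly(A) tail. Some members also give polyadenylated mRNA in cells that no longer divide, such as neurons, and H1f0 encodes the linker histone H1.0 that accumulates in such cells. The libraries were made from total RNA with a stranded kit, which does not rest on a poly(A) tail.

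The 3′ end shows how these genes differ in structure. In the GENCODE M21 transcripts (GRCm38), the first 100 bases after the stop codon were searched for an arm of 6 bases that begins with GG, a loop of 4 bases that begins with TTT, and the exact reverse complement of the arm. A stem-loop of this kind was found in 44 of the 52 members whose model holds at least 40 bases after the stop codon. The other 18 models could not be searched. They were too short or, for Hist1h2al and Hist1h2aj, annotated as pseudogenes with no stop codon given. Among all 20782 coding genes with such a model 49 held one, or 0.236%, and 5 of them were not members. The following sites, from members whose levels are described below, are shown so that the stem-loop forms of abundant members and of members called between the ages can be compared. Capitals mark the 16 bases of the stem-loop.

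Hist3h2ba: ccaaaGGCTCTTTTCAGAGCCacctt
Hist3h2a: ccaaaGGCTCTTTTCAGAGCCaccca
Hist1h2bg: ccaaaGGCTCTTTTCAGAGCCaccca
Hist1h1c: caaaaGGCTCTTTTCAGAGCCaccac
Hist2h2aa2: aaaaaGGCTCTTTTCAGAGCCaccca
Hist1h4h: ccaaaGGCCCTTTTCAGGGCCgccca
Hist1h4i: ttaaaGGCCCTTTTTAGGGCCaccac
Hist2h4: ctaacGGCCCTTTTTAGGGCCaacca

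The form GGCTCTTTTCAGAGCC occurred in 26 members and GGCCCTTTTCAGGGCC in 7. The form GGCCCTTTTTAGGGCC, shared by the H4 genes Hist1h4i and Hist2h4, occurred in 2. No stem-loop was found for H1f0 or for the H2B genes Hist1h2bc and Hist2h2be. Hist1h2bc has a spliced model of 2 exons, and 65 of the 70 members have a single exon. The models of 22 members ran 100 bases or more past the stem-loop and those of 21 ended within 60 bases of it. Among the former, 4 had a mean of at least 5 TPM (Hist3h2ba, 169 bases past; Hist3h2a, 1643; Hist1h1c, 840; Hist1h2bg, 155), and among the latter only Hist2h2aa2 (35 bases past) did. TPM divides by the length of a gene model, so the level of a member depends on where its model ends. Whether the deposited values rest on these models is not known.

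Both Hist3 genes lie on the plus strand of chromosome 11, Hist3h2ba at chr11:58948920-58949533 and Hist3h2a at chr11:58954685-58956830, with 5151 bases between them. Their promoters are shown because both genes were higher at 3 weeks than at 8 weeks, as given below. The sequences run from 250 bases before to 50 bases after the RefSeq start (GRCm38.p6, plus strand, chr11:58948661-58948960 for Hist3h2ba and chr11:58954435-58954734 for Hist3h2a). Capitals mark, on either strand, the TATA box letters TATAAA and the CCAAT box letters CCAAT as well as the octamer letters ATTTGCAT.

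Hist3h2ba: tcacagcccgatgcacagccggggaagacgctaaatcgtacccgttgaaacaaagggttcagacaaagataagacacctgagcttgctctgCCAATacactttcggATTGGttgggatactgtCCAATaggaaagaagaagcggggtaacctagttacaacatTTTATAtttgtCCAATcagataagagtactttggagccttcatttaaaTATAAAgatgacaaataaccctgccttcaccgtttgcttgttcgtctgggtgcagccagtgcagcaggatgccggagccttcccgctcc
Hist3h2a: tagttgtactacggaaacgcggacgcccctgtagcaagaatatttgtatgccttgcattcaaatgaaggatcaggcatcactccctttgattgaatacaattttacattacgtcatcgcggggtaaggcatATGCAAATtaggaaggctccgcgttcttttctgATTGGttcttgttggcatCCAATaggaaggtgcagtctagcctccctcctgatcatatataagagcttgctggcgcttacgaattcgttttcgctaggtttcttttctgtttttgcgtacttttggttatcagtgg

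RefSeq promoters were matched to 63 members, 62 distinct genes. CCAAT stood in 52 of the 62 (83.9%) against 41.1% of all 27025 genes with a promoter in the table. TATAAA stood in 35 (56.5%) against 15.7%, and ATTTGCAT in 14 (22.6%) against 1.97%. All 14 members with ATTTGCAT were H2A or H2B genes, 7 of each. Counted over the 63 members, CCAAT stood in the promoters of 18 of 18 H2A, 16 of 16 H2B, 10 of 10 H3 and 6 of 7 H1 genes, but in 3 of 12 H4 genes. Windows of genes that face each other overlap, so these counts are not independent, and a match is a string of letters and not a bound site. The promoter of H1f0 held none of the 3 strings.

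Summed over the 70 genes, histone transcripts came to 225.1 TPM (KO Control 1) to 319.7 TPM (P209L Control 2), or 0.0225% to 0.0320% of all TPM. H2B genes gave 100.3 TPM on average over the 17 mice, linker H1 genes 91.7, H2A genes 55.3, H4 genes 13.0 and H3 genes 5.39. A nucleosome holds equal numbers of the core histones, but among these members the H3 and H4 genes stood far below the H2A and H2B genes. The sums leave out the replacement and variant histone genes. Among those, H3f3a averaged 227.3 TPM, H3f3b 145.8 TPM and the H2A variant gene H2afz 176.5 TPM, so the sums do not give all transcripts of a class. In the wild-type mice, the summed H2B level was 128.4 ± 8.26 TPM at 3 weeks (SD, n = 2) against 87.6 ± 7.43 TPM at 8 weeks (n = 6), that is 146.5% of it. All 5 mice aged 3 weeks (111.6 to 141.2 TPM) lay above all 12 aged 8 weeks (79.0 to 105.2 TPM). Most of the wild-type difference came from Hist3h2ba, at 62.3 TPM against 31.8 TPM. Without Hist3h2ba the 2 ages overlapped: it held 67.6 of 123.7 TPM in P209L 3 and 38.5 of 105.2 TPM in KO 3. The ratio of 3-week to 8-week wild types was 125.0% for H2A, 131.2% for H4, 88.5% for H3 and 91.6% for H1. The ranges at the 2 ages overlapped in each of these classes.

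**Figure D1:**
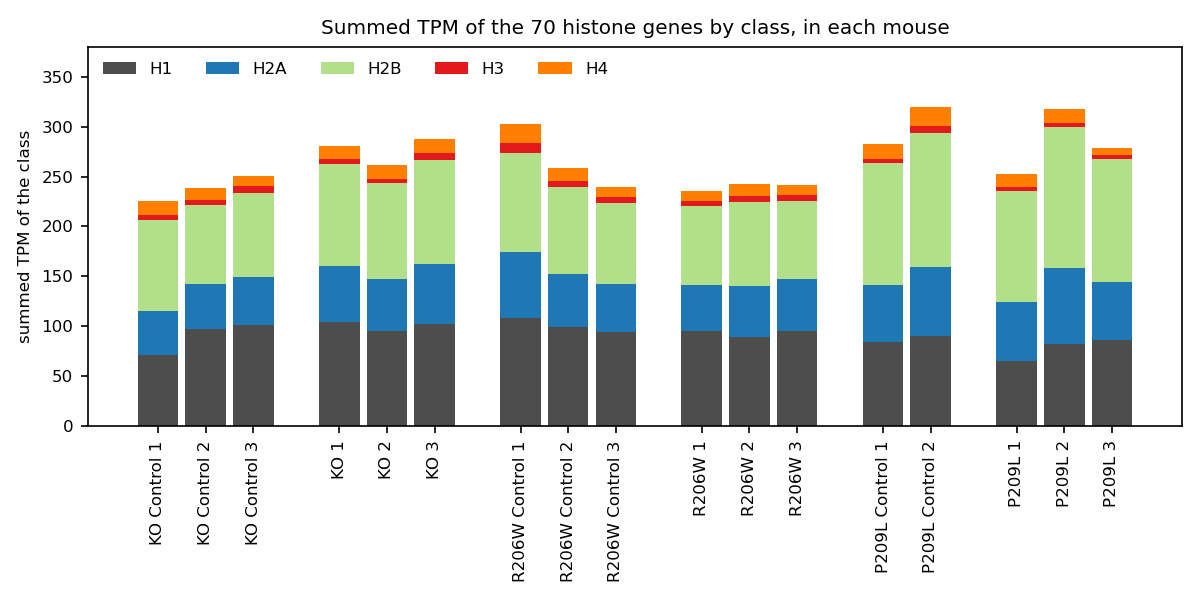
Summed TPM of the 70 histone genes in each of the 17 mice (bars, stacked by class from 0; vertical axis in TPM). The H2B part was larger in the 5 mice of the P209L line, at 3 weeks (111.6 to 141.2 TPM), than in the 12 mice at 8 weeks (79.0 to 105.2 TPM). Hist3h2ba alone averaged 62.3 TPM in P209L Control and 31.8 TPM in wild types at 8 weeks.

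Few members carried this signal. The 7 genes with a mean of at least 5 TPM held 86.7% of it. H1f0 was the highest, at 74.4 TPM on average, followed by the H2B genes Hist3h2ba (41.7) and Hist1h2bc (32.9), the H2A genes Hist2h2aa2 (30.2) and Hist3h2a (22.2), the linker gene Hist1h1c, which encodes H1.2 (15.9), and the H2B gene Hist1h2bg (12.9). Next came Hist1h4h (4.36), Hist2h3c2 (4.29, the only H3 gene that could be tested), Hist2h2be (4.22), Hist1h4i (3.21), Hist1h2be (2.68) and Hist1h2bp (2.21). Hist2h4, Hist1h4k, Hist1h1e (H1.4) and Hist1h4m lay between 1 and 2 TPM. Of the 53 others, 22 averaged 0.1 to 1 TPM, 26 less than that, and 5 were listed at 0 in every mouse (Hist1h2ba, Hist1h2ah, Hist1h2aa, Hist2h3b and Hist1h3c).

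Neighbours in this order often overlapped from mouse to mouse. Hist1h2bc (26.6 to 41.6 TPM) and Hist2h2aa2 (22.0 to 45.5 TPM) covered much the same range over the 17 mice. H1f0 stayed above all of them at 8 weeks (56.4 to 86.2 TPM, median 80.4), whereas at 3 weeks, at 52.2 to 71.1 TPM, it overlapped Hist3h2ba (53.0 to 67.6 TPM). Near-identical copies limit these values. All 50-base windows of Hist2h2aa2 and 63.5% of those of Hist2h3c2 also occurred in another annotated gene, against 22.1% for Hist3h2ba, 31.5% for Hist3h2a, 1.01% for Hist2h4 and 0% for H1f0. Reads of such windows are split by the quantification, not measured. More than 50% of the windows were shared in 34 members, 4 of them among the 17 tested. Besides Hist2h2aa2 and Hist2h3c2 these were Hist1h4m (89.8%) and Hist1h4k (71.5%).

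**Figure D2:**
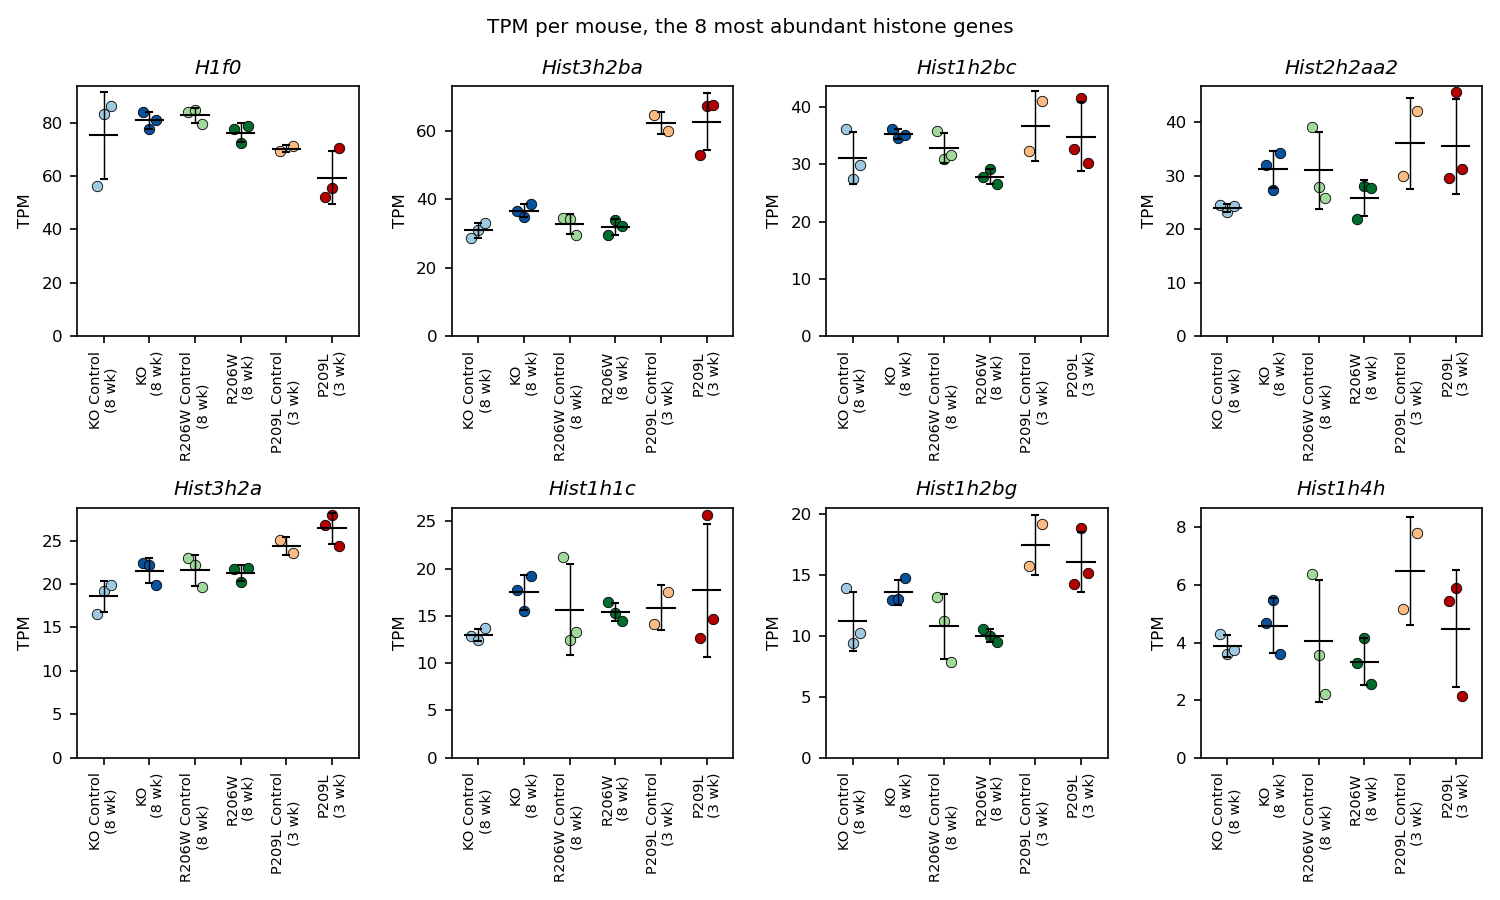
TPM of the 8 most abundant histone genes (vertical axes, linear from 0) in each mouse (points) of the 6 groups, with group means (lines) and SD (bars). H1f0 was the highest at 8 weeks, and Hist3h2ba reached its level in the P209L line at 3 weeks.

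Hnrnph2 itself checked the labels: it was 21.3 to 24.4 TPM in KO mice and 80.5 to 160 TPM in all others. KO Control 1 stood apart, with 20.1% of TPM from mitochondrial genes against 10.7% to 15.4% in the other mice. TPM counts every gene as a share of the total, and dividing by median-of-ratios size factors moved the median change of all genes from -0.12 to -0.02 between 3-week and 8-week controls, from -0.16 to -0.01 between 3-week and 8-week mutants, and from 0.13 to -0.003 between R206W Control and KO Control. Changes below were fitted with limma on log2(TPM + 1) over 16265 genes, with Benjamini-Hochberg adjustment over all of them and a threshold of 0.05. SE is the standard error of a log2 change, and low genes have their change understated on this scale.

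The first question was whether histone genes changed with loss or mutation of hnRNPH2 at 8 weeks. In KO mice none of the 17 passed the test, against 0.00615% of all genes, a single one (1 of 17 and 663 of 16265 genes at an unadjusted p under 0.05). All 17 fitted changes were above 0, with a median of 0.20 against 0.06 over all genes. Hist3h2ba was 36.7, 34.9 and 38.5 TPM in KO mice and 28.6, 30.9 and 33.1 TPM in their controls. Hist2h2aa2 was 31.9, 27.3 and 34.2 TPM in KO mice and 24.5, 23.1 and 24.4 TPM in controls. Both genes were higher in every KO mouse than in every control, as were Hist1h1c, Hist1h1e and Hist1h2be.

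These 5 of 17 compare with 5.43% of all genes, and 0 of 17 lay below every control, against 0.824%. The fitted log2 changes were 0.24 (SE 0.11) for Hist3h2ba, 0.20 (SE 0.10) for Hist3h2a and 0.36 (SE 0.18) for Hist2h2aa2, each with an adjusted p of 0.999 (limma). Without KO Control 1, 15 of 17 changes were above 0 and their median was 0.26, against -0.06 over all genes. With size factors 15 of 17 were above 0, with a median of 0.13. The nonpolyadenylated RNAs fixed as a list (Rn7sk, Rny1, Rmrp and others) summed to 849 to 5818 TPM in KO mice and 119 to 1011 TPM in KO Control mice, with 10 of 12 changes above 0. Changes were also above 0 in 6 of 6 oligodendrocyte genes (median 0.16), 5 of 5 astrocyte genes (0.26) and 4 of 4 endothelial genes (0.40). The same held for 4 of 4 leptomeningeal genes (0.29) and 4 of 4 erythroid genes (0.27), against 4 of 7 neuronal genes (0.03), and none of these genes passed the test. The part of these RNAs and markers in the values of the histone genes was not tested.

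In R206W mice none of the 17 passed the test, against 0.0369% of all genes (0 of 17 and 357 of 16265 genes at an unadjusted p under 0.05). Here 16 of the 17 changes were below 0, with a median of -0.18 against 0.01 over all genes. Hist2h2be was 3.76, 3.43 and 3.52 TPM in R206W mice and 5.51, 3.99 and 4.10 TPM in R206W Control mice, a log2 change of -0.27 (SE 0.13). The largest of these values came from R206W Control 1, and all 3 mutants lay below all 3 controls. Hist1h2bc changed by -0.23 (SE 0.13) and Hist1h4i by -0.30 (SE 0.18), and the adjusted p (limma) was 1 for all 3 genes.

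H1f0, Hist1h2bc, Hist1h4i and Hist2h2be were lower in every R206W mouse than in every control. These 4 of 17 compare with 8.11% of all genes, and 0 of 17 lay above every control, against 8.09%. The direction of the list rested in part on a single mouse: without R206W Control 1, 6 of 17 changes were above 0 and the median was -0.06. Other lists lay below 0 as well, though none of their genes passed. Changes were above 0 in 0 of 6 oligodendrocyte genes (median -0.13), 0 of 4 erythroid genes (-0.49) and 1 of 12 nonpolyadenylated RNAs (-0.40), but in 4 of 4 endothelial genes (0.13) and 4 of 5 astrocyte genes (0.07). Their part in the histone values was not tested.

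The 2 effects at 8 weeks were then set against each other in the same fit. For the KO effect minus the R206W effect none of the 17 passed, against 0.0307% of all genes (2 of 17 and 373 of 16265 genes at an unadjusted p under 0.05). All 17 differences were above 0, with a median of 0.38 against 0.05 over all genes. Hist2h2aa2 differed by 0.60 (SE 0.26), Hist1h2bc by 0.41 (SE 0.19) and Hist1h2bp by 0.51 (SE 0.29), with adjusted p of 1 (limma). The median was 0.24 without R206W Control 1 and 0.31 with size factors, and with sample weights 16 of 17 were above 0. In this contrast the difference was also above 0 in 12 of 12 nonpolyadenylated RNAs (median 2.16), 6 of 6 oligodendrocyte genes (0.32) and 4 of 4 erythroid genes (0.80). It was above 0 in 5 of 5 astrocyte (0.21), 4 of 4 endothelial (0.24) and 4 of 4 leptomeningeal genes (0.36) too, none of which passed, and their part in the histone values was not tested. The wild-type groups alone, R206W Control against KO Control, gave no call in the 17 or in any gene (0 genes, 0 of 17 at an unadjusted p under 0.05, 507 genes in all). There 14 of 17 members had a change above 0, led by Hist3h2a at 0.21 (SE 0.10), Hist2h2aa2 at 0.33 (SE 0.18) and Hist1h4m at 0.43 (SE 0.25), with adjusted p of 0.784 (limma) and a median of 0.16 against 0.13 over all genes, and 9 of 17 with size factors. The median was 0.01 with size factors and 0.02 without R206W Control 1.

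In P209L mice none of the 17 passed, against 0.0984% of all genes (2 of 17 and 1213 of 16265 genes at an unadjusted p under 0.05). The changes were above 0 in 5 and below 0 in 12, with a median of -0.12 against 0.02. The H4 gene Hist1h4m was 0.44, 0.90 and 0.16 TPM in P209L mice and 1.40 TPM in both controls, and Hist1h4i was 4.22, 3.58 and 3.11 TPM against 5.74 and 5.13 TPM. These were the only 2 members with every mutant below every control, against 10.7% of all genes, and none had every mutant above, against 14.2%.

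Hist1h4m changed by -0.71 (SE 0.28, adjusted p = 0.549, limma), Hist1h4i by -0.48 (SE 0.20, adjusted p = 0.603) and H1f0 by -0.25 (SE 0.16, adjusted p = 0.822). Of the 50-base windows of Hist1h4m, 89.8% also occur in other genes, which limits its values here and in the contrasts below. The median was -0.27 without P209L Control 1 but 0.07 without P209L Control 2, so that its direction rested on P209L Control 2. The P209L effect minus the R206W effect gave 0 calls among the 17 and over all genes (0 of 17 and 647 genes at an unadjusted p under 0.05), led by Hist1h2bp at 0.46 (SE 0.31), Hist1h4m at -0.50 (SE 0.37) and Hist3h2a at 0.13 (SE 0.15), with adjusted p of 1.00 (limma).

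**Figure D3:**
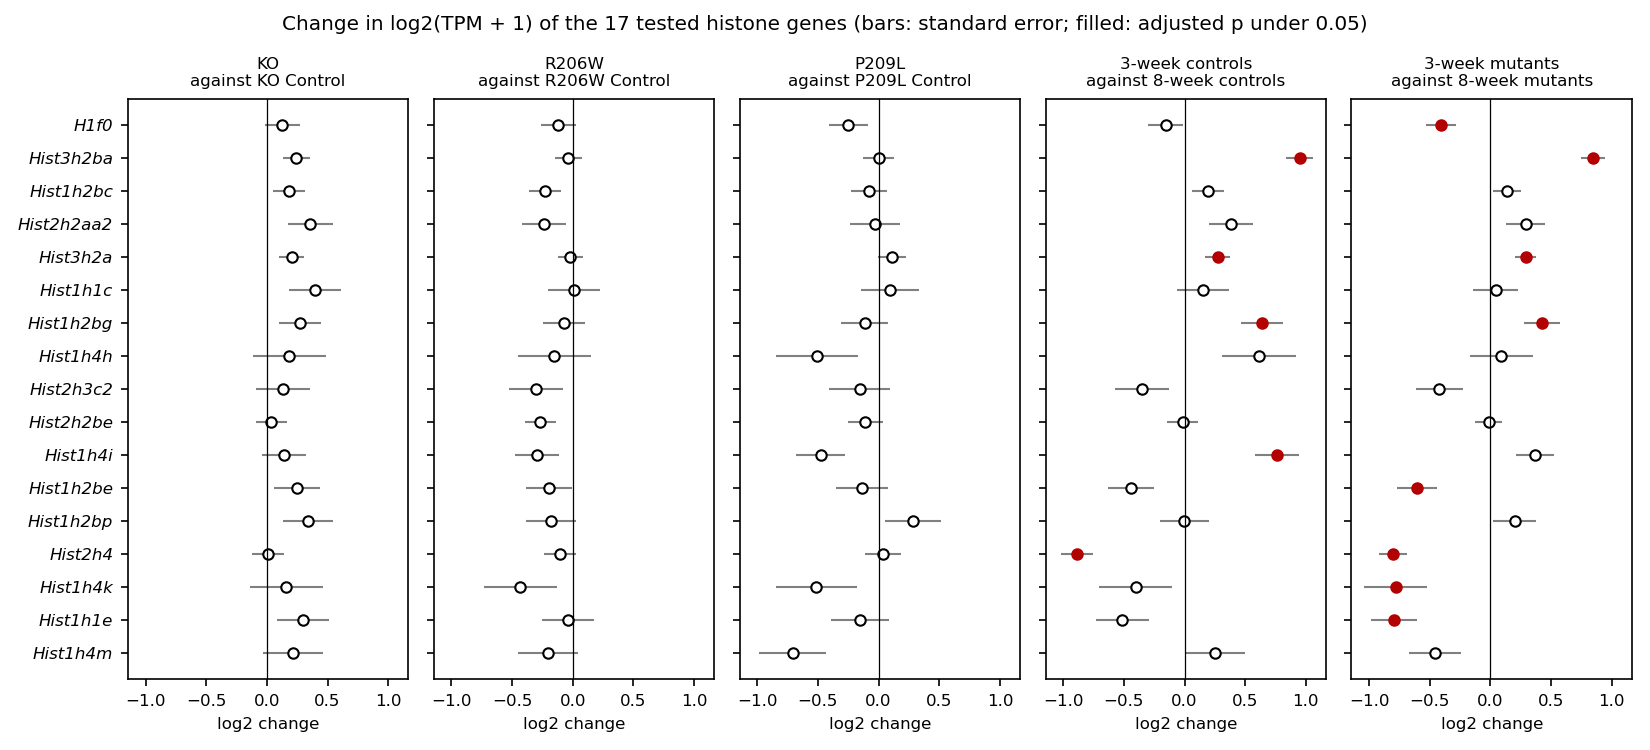
Fitted change in log2(TPM + 1) of the 17 tested histone genes (horizontal axes; points, with bars of 1 standard error) in the 3 lines and between the 2 ages; filled points have an adjusted p under 0.05. No gene is filled in KO, R206W or P209L mice, 5 are filled between 3-week and 8-week controls and 8 between 3-week and 8-week mutants.

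The second question was how these genes differed between the 3-week and the 8-week mice, first in wild types and then in mutants. The wild-type comparison does not use the group means of the mutants. All groups share the residual spread, so the 2 comparisons are not independent. For these comparisons, rose and fell (or a fall) describe the 3-week level relative to the 8-week level, not a course over time. In wild types 5 of the 17 passed the test, against 36.1% of all genes. Of these 4 were higher at 3 weeks, against 11.3% of all genes, and 1 was lower, against 24.8%. In mutants 8 of the 17 passed, against 45.9%, with 3 higher at 3 weeks, against 13.9%, and 5 lower, against 32.1%. Counting both directions, the shares called were thus near those of all genes. With size factors the higher genes made up 45.6% of all calls in wild types in place of 31.3%, and 47.9% in mutants in place of 30.2%. The median change of the 17 was 0.15 in wild types against -0.12 over all genes, and 0.04 in mutants against -0.16. The wild-type median ranged from 0.0085 without P209L Control 2 to 0.25 without P209L Control 1 and was 0.26 with size factors. The mutant median turned to -0.12 without P209L 2, reached 0.11 without P209L 3 and was 0.20 with size factors.

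Among the members tested, Hist3h2ba had the smallest p at both comparisons and was higher at 3 weeks. It was 64.6 and 59.9 TPM in P209L Control and 53.0, 67.3 and 67.6 TPM in P209L mice, whereas the 12 mice at 8 weeks ranged from 28.6 to 38.5 TPM (median 33.6). The 2 ages did not overlap. The log2 difference was 0.95 (SE 0.11, adjusted p = 4.44e-05, limma) in wild types and 0.85 (SE 0.10, adjusted p = 1.91e-05) in mutants. Hist3h2a, the H2A gene of the same small cluster, was 25.1 and 23.6 TPM in P209L Control and 26.8, 28.0 and 24.4 TPM in P209L mice, against 16.6 to 23.0 TPM (median 20.95) at 8 weeks. It also lay wholly above, and 2 of 17 members above compare with 6.49% of all genes.

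The difference for Hist3h2a was small, 0.27 (SE 0.10, adjusted p = 0.0476, limma) in wild types and 0.29 (SE 0.09, adjusted p = 0.0142) in mutants. In wild types the call was lost when any of KO Control 2, R206W Control 2, R206W Control 3, P209L Control 1 or P209L Control 2 was left out (adjusted p 0.0562 to 0.266), with the replicate block (0.0773) and with the 3 groups of the contrast alone (0.133). In mutants it was lost without P209L 2 (adjusted p = 0.0765). An exon of Hist3h2a overlaps Trim17 on the same strand in GENCODE, so reads of the 2 genes may be mixed.

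The H2B gene Hist1h2bg was 15.7 and 19.2 TPM in P209L Control and 14.2, 18.9 and 15.2 TPM in P209L mice, against 7.89 to 14.8 TPM (median 10.9) at 8 weeks, so that only the lowest 3-week mouse fell within the 8-week range. It rose by 0.64 (SE 0.17, adjusted p = 0.00921, limma) in wild types and 0.42 (SE 0.15, adjusted p = 0.0283) in mutants. The first call was lost without P209L Control 2 (0.50, adjusted p = 0.139), and the second without P209L 2 (adjusted p = 0.161), without R206W 3 (0.0540) and with no filter on low genes (0.0616). The H4 gene Hist1h4i was higher at 3 weeks by 0.76 (SE 0.18, adjusted p = 0.00466, limma) in wild types. Its level was 5.74 and 5.13 TPM in P209L Control, against 1.82 to 3.90 TPM in the 6 wild types at 8 weeks. It was 4.22, 3.58 and 3.11 TPM in P209L mice, 0.36 above the 8-week mutants (SE 0.16, adjusted p = 0.0685), and the call in wild types was lost without P209L Control 1 (0.70, adjusted p = 0.0640).

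Hist2h4, which encodes H4 and shares its stem-loop form with Hist1h4i, went the other way. It was 0.55 and 0.73 TPM in P209L Control and 0.80, 0.76 and 0.49 TPM in P209L mice, against 1.56 to 2.27 TPM (median 2.06) in the 12 mice at 8 weeks. All 3-week mice lay below all 8-week mice, which held for 1 of 17 members and 10.2% of all genes. It fell by 0.88 (SE 0.13, adjusted p = 0.000227, limma) in wild types and by 0.80 (SE 0.12, adjusted p = 0.000101) in mutants. Hist3h2ba and Hist2h4 kept their calls under each of the alternatives in which they were tested, in both comparisons.

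Of the 7 linker genes 3 were tested, and 2 of them, Hist1h1e and H1f0, were called lower at 3 weeks in mutants. Hist1h1e was 0.32, 0.79 and 0.42 TPM in P209L mice and 1.33 to 1.88 TPM in the 6 mutants at 8 weeks, a fall by 0.79 (SE 0.19, adjusted p = 0.00307, limma). In wild types it differed by -0.51 (SE 0.22, adjusted p = 0.0748), at 0.38 and 1.01 TPM against 0.86 to 2.66 TPM, which overlapped. H1f0 was 52.2, 55.4 and 70.7 TPM in P209L mice against 72.3 to 83.9 TPM in 8-week mutants, a fall by 0.41 (SE 0.12, adjusted p = 0.0142) that was lost without P209L 1 (-0.32, adjusted p = 0.0850) or P209L 2 (-0.36, adjusted p = 0.0679). In wild types it differed by -0.15 (SE 0.14, adjusted p = 0.417). The most abundant Hist1 linker gene, Hist1h1c, passed in neither comparison, at 0.15 (SE 0.21, adjusted p = 0.599) in wild types and 0.04 (SE 0.19, adjusted p = 0.867) in mutants.

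Hist1h2be, an H2B gene whose exons overlap those of Hist1h1e on the same strand, was 1.92, 2.15 and 1.06 TPM in P209L mice and 2.55 to 3.57 TPM in 8-week mutants. It fell by 0.60 (SE 0.16, adjusted p = 0.00800, limma), and the call was lost without P209L 3 (-0.42, adjusted p = 0.0613). Reads of these 2 genes may be shared. The H4 gene Hist1h4k fell by 0.78 (SE 0.26, adjusted p = 0.0224, limma), at 0.24, 0.86 and 0.26 TPM against 1.06 to 2.12 TPM, and lost its call without P209L 1 (0.0924), without P209L 3 (0.0805) or with no filter (0.0575). Of its 50-base windows 71.5% also occur in other genes.

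To ask whether the age difference itself differed between mutants and wild types, a contrast chosen after the values were seen was added to the fit. It called 0 of the 17, against 0.0184% of all genes (1 of 17 and 1203 of 16265 genes at an unadjusted p under 0.05). Hist1h4m led, at -0.71 (SE 0.33, adjusted p = 0.668, limma), and Hist1h4i was at -0.40 (SE 0.24, adjusted p = 0.738). Genes called in mutants and not in wild types, such as H1f0 and Hist1h1e, were therefore not shown to differ between them.

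**Figure D4:**
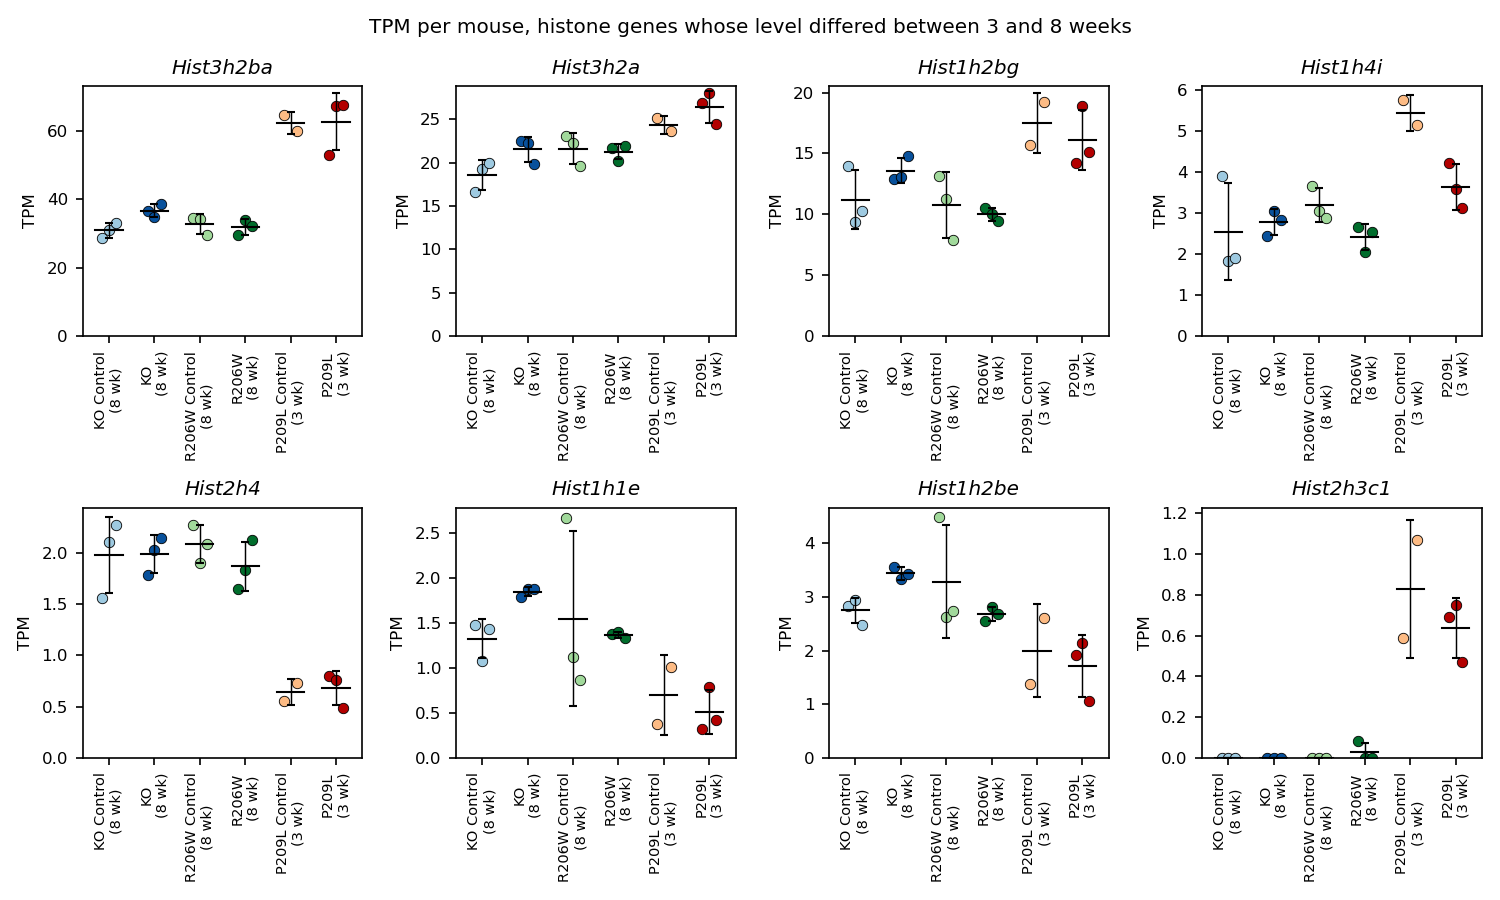
TPM (vertical axes, linear from 0) in each mouse (points) of the 6 groups, with group means (lines) and SD (bars), for 7 tested histone genes called between the 2 ages in wild types or mutants and for the low gene Hist2h3c1. Hist3h2ba and Hist3h2a lie higher and Hist2h4 lower in all 5 mice at 3 weeks than in all 12 at 8 weeks.

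Among the 48 members with a mean under 1 TPM and any value above 0, a fit with no filter (33969 genes) called 2 in each age comparison, against 16.1% of all genes in wild types and 21.8% in mutants. Hist2h3c1, an H3 gene, was 0.59 and 1.07 TPM in P209L Control and 0.69, 0.75 and 0.47 TPM in P209L mice, but was listed at 0 in 11 of 12 mice at 8 weeks and at 0.08 TPM in R206W 1. The log2(TPM + 1) difference was 0.86 (SE 0.08, adjusted p = 5.13e-05, limma) in wild types and 0.69 (SE 0.07, adjusted p = 4.14e-05) in mutants. All of its 50-base windows also occur in other genes, first of all in Gm20634, whose exons overlap its own on the same strand and which shares the most windows with Hist2h3c2 and Hist2h2aa2 too. Its near-identical neighbour Hist2h3c2 was 2.43 to 4.97 TPM at 3 weeks and 3.36 to 7.73 TPM at 8 weeks.

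Summed as one, in an alternative chosen after seeing the data, Hist2h3b, Hist2h3c1 and Hist2h3c2 differed by -0.12 (SE 0.22, adjusted p = 0.708, limma) in wild types and -0.22 (SE 0.19, adjusted p = 0.372) in mutants. The sum, which leaves out Gm20634, did not pass the test in either comparison. The other low genes called were Hist1h4a in wild types (0.38, SE 0.10, adjusted p = 0.0213) and Hist1h2bb in mutants (0.37, SE 0.12, adjusted p = 0.0397), both at under 1 TPM in every mouse.

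Genes that act on histones or their mRNA were read from lists beside the members. Of 18 tested genes of histone gene transcription and histone mRNA 3′ processing or decay, 3 rose and 3 fell at 3 weeks in wild types, and 4 rose and 3 fell in mutants, with medians of -0.11 and -0.04. Casp8ap2, a partner of histone gene activation, fell by 0.78 (SE 0.12, adjusted p = 0.000230, limma) in wild types and Npat, the cyclin E-Cdk2 target that switches histone genes on, by 0.47 (SE 0.13, adjusted p = 0.0108). Mblac1, which encodes a nuclease reported to act on histone pre-mRNA 3′ ends, rose by 0.56 (SE 0.15, adjusted p = 0.0103, limma). In mutants the leading calls were Mblac1 (0.47), Srrt (0.50) and Ncbp2 (0.38), with adjusted p of 0.00987, 0.0106 and 0.0108. Slbp, which binds the stem-loop, passed in neither comparison.

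Of 15 tested genes of S phase and proliferation, 1 rose and 1 fell in wild types, and 1 rose and 3 fell in mutants. Ccna2, cyclin A2, was 2.67 TPM in 3-week and 1.75 TPM in 8-week wild types (log2 difference 0.42, SE 0.15, adjusted p = 0.0400, limma), while the replication helicase subunit Mcm4 fell by 0.56 (SE 0.17, adjusted p = 0.0172). In mutants Mcm2 fell by 0.78 (adjusted p = 0.000477) and Mcm4 by 0.66 (adjusted p = 0.00196), and Ccna2 rose by 0.57 (adjusted p = 0.00292). The list summed to 95.5 to 113 TPM at 3 weeks and 93.0 to 122.5 TPM at 8 weeks, and these ranges overlapped.

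Of 10 tested replacement and variant histones, many of which are also made outside S phase, 1 rose and 1 fell in wild types, and 3 rose and 3 fell in mutants. In wild types Cenpa, the H3 variant of the centromere, rose by 0.48 (SE 0.16, adjusted p = 0.0319, limma) and H1fx, a linker variant, fell by 0.56 (SE 0.19, adjusted p = 0.0319). In mutants Cenpa rose by 0.84 (adjusted p = 0.000325), H3f3a, which encodes H3.3, rose by 0.52 (adjusted p = 0.000336) and H1fx fell by 0.74 (adjusted p = 0.00218). Of 15 tested histone chaperones, 0 rose and 3 fell in wild types, and 1 rose and 3 fell in mutants. Atrx fell by 0.83 in wild types (adjusted p = 0.000546, limma) and by 0.65 in mutants (adjusted p = 0.000723), and Nasp rose by 0.47 in mutants (adjusted p = 0.000899). None of the 58 tested genes on these 4 lists passed in KO, R206W or P209L mice.

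Other cell type markers moved with the age comparison. Erythroid genes were called higher in 4 of 4 in wild types and 2 of 4 in mutants, and summed to 1725 to 4043 TPM at 3 weeks against 412.5 to 985.9 TPM at 8 weeks. Oligodendrocyte genes were called higher in 4 of 6 in wild types and in 0 of 6 in mutants, where 1 was lower. Neuronal genes were called lower in 3 of 7 and 5 of 7, and summed to 2714 to 3308 TPM against 3085 to 5564 TPM. Of the oligodendrocyte precursor genes 3 of 6 were higher in wild types, and 1 higher and 1 lower in mutants. Astrocyte genes were lower in 2 and 3 of 5, microglial genes in 3 of 5 (with 1 of 5 higher) each time, endothelial genes in 1 and 3 of 4, and leptomeningeal genes in 0 and 2 of 4, whereas 0 of 3 neuroblast genes passed. Of the nonpolyadenylated RNAs 1 of 12 was higher in wild types and 0 of 12 passed in mutants. No cell type marker was at 0 in all mice, and no gene of these lists passed in KO, R206W or P209L mice. Their part in the histone values was not tested.

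Within groups, members tended to be high together in the same mice. R206W Control 1 had the highest value of its group in 14 of 17 members, against 45.5% of all genes, with a median deviation from the group mean of 0.25 on the log2 scale against 0.02 over all genes. P209L 2 was the highest of its group in 12 of 17, against 28.6%, with a median deviation of 0.23 against 0.01. P209L Control 2 was the higher of its pair in 13 of 17, against 51.6%, with 0.15 against 0.004. In R206W Control 1, Hist1h1c was 21.2 TPM (12.5 and 13.3 in its group mates) and Hist2h2aa2 was 39.1 TPM (27.9 and 25.9). In P209L 2 the same genes were 25.7 TPM (12.7 and 14.7) and 45.5 TPM (29.6 and 31.2).

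Hist3h2ba, with the smallest p in both age comparisons, was not the highest of its group in each of these mice. It was 34.6 TPM in R206W Control 1 (34.2 and 29.4 in its group mates) and 67.3 TPM in P209L 2 (53.0 and 67.6). Hist1h2bg, also called in both age comparisons, was the highest in all 3. It was 13.2 TPM in R206W Control 1 (11.3 and 7.89), 19.2 TPM in P209L Control 2 (15.7) and 18.9 TPM in P209L 2 (14.2 and 15.2). The nonpolyadenylated RNAs summed to 1198 TPM in R206W Control 1 against 323 and 328 TPM in its group mates, and to 2187 TPM in P209L Control 2 against 140.4 TPM, but to 157.7 TPM in P209L 2 against 562 and 252 TPM. The sum was thus high in 2 of these 3 mice and low in the other. KO Control 1, the mouse with the high mitochondrial share, had the lowest value of its group in 75.3% of all genes but in 5 of 17 members.

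**Figure D5:**
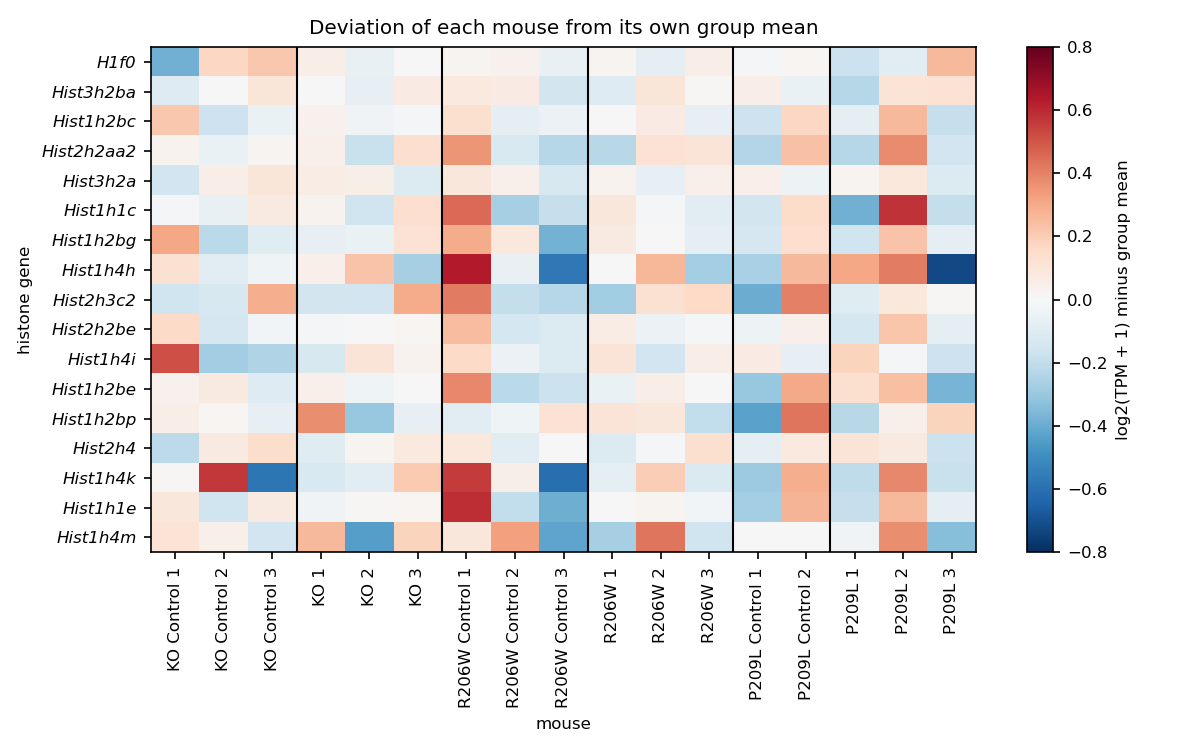
Deviation of each mouse (columns, by group) from its group mean in log2(TPM + 1) for the 17 tested histone genes (rows, by mean level); red is above and blue below the mean. R206W Control 1, P209L Control 2 and P209L 2 are above their group mean in most rows, with median deviations of 0.25, 0.15 and 0.23.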

How the data were processed

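The authors deposited TPM by gene symbol, 1 column per mouse. The submitters' processing notes name Trim Galore, STAR 2.7.1a, GATK 4.0.4.0 and RSEM with the build mm10, with no role given. Annotation and read length are not given in the sources used here. Columns summed to 1000000 TPM, none were identical, and depth per mouse is unknown, so no counting error or floor is given. The table held 55573 entries, 120 of them repeated symbols, which were summed. Genes with a mean of at least 1 TPM were tested as log2(TPM + 1) with limma 3.58.1 in R 4.3.3 (group means, eBayes with trend, two-sided), all 6 groups sharing the residual spread. P-values measure the spread between mice and were adjusted by Benjamini-Hochberg over all tested genes. Tested on simulated data for 3-week against 8-week controls (16265 genes), the fit recovered 79 of 100 genes changed by a log2 of 1 and 22 of 100 changed by 0.5, with 5 false calls. Only these genes were changed in the simulation, whereas 36.1% of genes were called in the measured wild types. The adjustment therefore acts differently there, and the simulated rates need not hold for the measured comparison. Members, gene lists and tests were chosen with earlier results of these data known. Members with a mean of at least 2 TPM were named, those of at least 5 TPM or called were given per mouse, and the 3 of smallest p were given where none was called. From each other list up to 3 called genes of smallest p were named, and Slbp was named after its values were seen. Stem-loops, overlaps and shared windows of 50 bases came from GENCODE M21, in which all 70 symbols were found (68 as protein coding), and promoters from RefSeq (GRCm38.p6) by symbol or synonym. Protein sequences were not used here.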

Additional observations from a re-analysis of the deposited data

How the results depend on the processing

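Of 925 alternative values, 891 counted as the same, 15 moved and 19 calls of single genes were lost. Single genes were followed only where called, or as the 3 of smallest p where none was called. For them the same meant direction and side of the threshold, and none of them reversed. Other members did change sign: in R206W mice 1 of 17 changes was above 0 in the main fit and 6 of 17 without R206W Control 1. Medians, counts and sums were judged by size alone. A median counted as the same when it shifted by less than 0.148, even across 0. With sample weights the P209L median went from -0.12 to 0.015, and other medians that turned are given below. The median change of members without the filter, where 48 low genes enter, was 0.0226 in KO mice and 0.0830 for the KO minus the R206W effect. Leaving out 1 mouse gave medians of -0.267 to 0.0678 in P209L mice (without P209L Control 1 and 2), -0.14 to 0.19 for the P209L minus the R206W effect (lowest without R206W Control 1; -0.11 without P209L Control 1), -0.12 to 0.11 between mutant ages (lowest without P209L 2) and -0.328 to -0.0108 for the added contrast of age differences (lowest without P209L Control 1; -0.28 without P209L 2). A filter at 5 TPM, which leaves 7 members, called 3 members between control ages and 4 between mutant ages, with a median of 0.29 in the latter, and size factors gave 0.20 there and 157.2% for the H2B sum in 3-week controls. Calls between control ages ranged from 3 (without P209L Control 1) to 7 over mice left out, and between mutant ages from 6 to 9. The deviations of same-numbered mice of a line gave r from -0.113 to 0.331 over 8 pairs, highest for KO Control 3 with KO 3. No pairing by number was used in the main fit, and these values cannot settle whether the numbers pair the mice. The replicate block called 4 members between control ages, losing Hist3h2a, and 9 between mutant ages, with medians of 0.13 and 0.04; it called 0 in the 3 lines. Hist2h4, Hist1h4i and other members under 5 TPM gave no value under that filter. Depth is unknown, and 2 controls at 3 weeks limit each age and P209L value.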
